A study of Mus musculus with 6 samples.

Results

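Phosphoinositide 3-kinases (PI3Ks) phosphorylate a membrane phosphoinositide to make the lipid messenger PIP3, which recruits AKT, BTK and other proteins with PIP3-binding domains to the membrane. Class IA enzymes pair a catalytic subunit with an SH2-domain regulatory subunit that docks on phosphotyrosines of receptors and adaptors, whereas the class IB enzyme is activated by G-protein beta-gamma subunits through its own regulatory partners. In B cells the delta catalytic subunit is known as the main PI3K of the antigen receptor, and PI3K output shapes both survival and the germinal centre reaction. The 10 genes described here are 4 catalytic subunits (Pik3ca, Pik3cb, Pik3cd and Pik3cg), 5 regulatory subunits (Pik3r1, Pik3r2, Pik3r3, Pik3r5 and Pik3r6) and the adaptor Pik3ap1. They were chosen by name, and all 10 were measured, out of 18193 genes on the array. Each was read by its probe set of highest mean signal over the 6 arrays, with the others of its 26 probe sets beside it.

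The 6 arrays measured total RNA of germinal centre B cells, isolated with magnetic beads from mouse spleens after immunisation with sheep erythrocytes. ImHABCL6/Uchl1 mice (3 arrays) carried a transgene for the deubiquitinating enzyme Uchl1 on top of the ImHABCL6 allele, and ImHABCL6 mice (3 arrays) carried that allele alone. ImHABCL6 is a published allele that expresses tagged BCL6, the repressor that defines germinal centre B cells, from an immunoglobulin heavy-chain promoter, so both groups carried deregulated BCL6 and neither was wild type. The sources used here give neither the promoter that drives the Uchl1 transgene nor the age of the mice. The comparison asked what transgenic Uchl1 changes in the transcriptome of these cells. The values are log2 expression levels, in which a difference of 1 is a doubling of signal.

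Uchl1 read 5.96, 5.87 and 6.02 in the ImHABCL6/Uchl1 arrays, against values no higher than 5.02 in the ImHABCL6 arrays, and the groups did not overlap (difference 0.94, SE 0.12, limma adjusted p = 0.638). Its 1 probe set was dim, above 38.5% of genes, and whether it reads the whole transgenic transcript is not given in the sources used here. Median signals of the arrays lay between 5.56 and 5.67. Markers of B cells and germinal centre B cells were bright, with medians above 92.4% and 94.7% of genes, and those of T cells (34.6%), macrophages (31.5%), neutrophils (37.3%) and NK cells (11.6%) were low. Plasma cell markers (64.1%) and those of megakaryocytes and platelets (70.9%) lay above the median gene, and erythroid markers were bright as well (95.6%). The mean of the 12 measured of 16 erythroid markers was 9.20, 10.97 and 10.45 in the ImHABCL6/Uchl1 arrays, against 10.62, 11.12 and 11.52 in the ImHABCL6 arrays. It was lowest in ImHABCL6/Uchl1 replicate 1. The mean of the 9 measured B-cell markers was 11.11, 10.77 and 10.75 in the ImHABCL6/Uchl1 arrays, against 10.74, 10.62 and 10.55 in the ImHABCL6 arrays. Of the erythroid markers 11 of 12 were lower on average with the transgene, and of the B-cell markers 8 of 9 were higher. Over all genes 50.6% were higher. The unadjusted limma p was under 0.05 for 7 of the 12, all lower, and for 2 of the 9, all higher, against 4.94% of all genes. With limma 0 markers of these lists had an adjusted p under 0.05. The groups did not overlap for 3 of the 12 and 2 of the 9, against 9.44% of all genes. The part of the B-cell markers in the differences below was not tested, and that of the erythroid markers is given as values with their mean as a covariate. In such bulk RNA, fewer cells of a type and less RNA per cell cannot be told apart.

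The promoters of 3 catalytic subunits are shown because Pik3cg and Pik3cb had the largest differences of the family, in opposite directions, and Pik3cd had the highest signal. Each is the 250 bases before the most upstream start in RefSeq's table (GRCm38.p6), 5′ to 3′ on the strand of the gene, with matches to 5 motifs in capitals. Pik3cg is at chr12:32208660-32208909 (minus strand), Pik3cb at chr9:99140212-99140461 (minus strand) and Pik3cd at chr4:149698709-149698958 (minus strand).
Pik3cg: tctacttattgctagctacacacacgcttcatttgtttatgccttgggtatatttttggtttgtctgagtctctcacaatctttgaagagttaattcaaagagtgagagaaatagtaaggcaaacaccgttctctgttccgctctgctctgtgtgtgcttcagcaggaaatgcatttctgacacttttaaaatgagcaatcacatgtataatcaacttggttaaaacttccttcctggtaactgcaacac
Pik3cb: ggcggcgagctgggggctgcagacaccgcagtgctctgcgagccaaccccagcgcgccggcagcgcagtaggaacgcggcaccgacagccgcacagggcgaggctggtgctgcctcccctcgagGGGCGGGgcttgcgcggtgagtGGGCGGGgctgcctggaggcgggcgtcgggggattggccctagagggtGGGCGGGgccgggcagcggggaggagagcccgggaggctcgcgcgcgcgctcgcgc
Pik3cd: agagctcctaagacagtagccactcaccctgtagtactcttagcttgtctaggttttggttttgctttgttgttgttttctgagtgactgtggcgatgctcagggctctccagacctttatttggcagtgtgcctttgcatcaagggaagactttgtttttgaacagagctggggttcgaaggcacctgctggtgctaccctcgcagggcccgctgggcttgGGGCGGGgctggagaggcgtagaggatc
The motifs, searched on both strands, were a BCL6 site (TTCNNNGAA), a FOXO site (GTAAACA), a PU.1 site (GAGGAAG), the MYC E-box (CACGTG) and the GC box (GGGCGGG), and the search was chosen after the expression values were seen. The capitals mark GC boxes, of which the Pik3cb window held 3, the Pik3cd window 1 and the Pik3cg window 0. Among the other members the Pik3r1 window held 4, that of Pik3r5 2 and that of Pik3r2 1. Those of Pik3r3, Pik3ca and Pik3ap1 held 0, and Pik3r6 had no window. RefSeq's table held 3 starts for Pik3cd and 2 for Pik3cg, and windows of the further starts were not searched. A GC box stood in 23.6% of 27026 such windows. The other 4 motifs had no match in these 3 windows. BCL6, FOXO, PU.1 and E-box matches stood in 7.14%, 3.06%, 10.4% and 6.04% of all windows, in that order. The Pik3cb window was 78.0% G or C, the Pik3cd window 53.6% and the Pik3cg window 38.8%, with a median of 52.0% over all windows. The letters describe the windows only, and no binding was measured.

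In the comparison of ImHABCL6/Uchl1 with ImHABCL6 cells, 3 of the 10 genes separated the groups completely. Pik3cg, the class IB catalytic subunit, was higher in all 3 ImHABCL6/Uchl1 arrays, and Pik3cb and Pik3r3 were lower in all 3. The other 7 overlapped, among them the leukocyte catalytic subunit Pik3cd and the main regulatory subunit Pik3r1. Over all genes, 9.44% separated the groups, 3.95% upward and 5.49% downward. No member passed the test over all genes: with limma 0 of 10 had a Benjamini-Hochberg adjusted p under 0.05, as did 0 (0%) of 18193 genes, and the members' adjusted p ran from 0.870 to 0.998. Unadjusted, 3 of 10 had a limma p under 0.05, the same 3 genes, against 4.94% of all genes. The median log2 difference of the 10 was 0.10, against 0.0029 for all genes, and their median absolute difference was 0.21, against 0.12. These members are too few, and were chosen with earlier results known, for their share to be tested against that background.

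**Figure D1:**
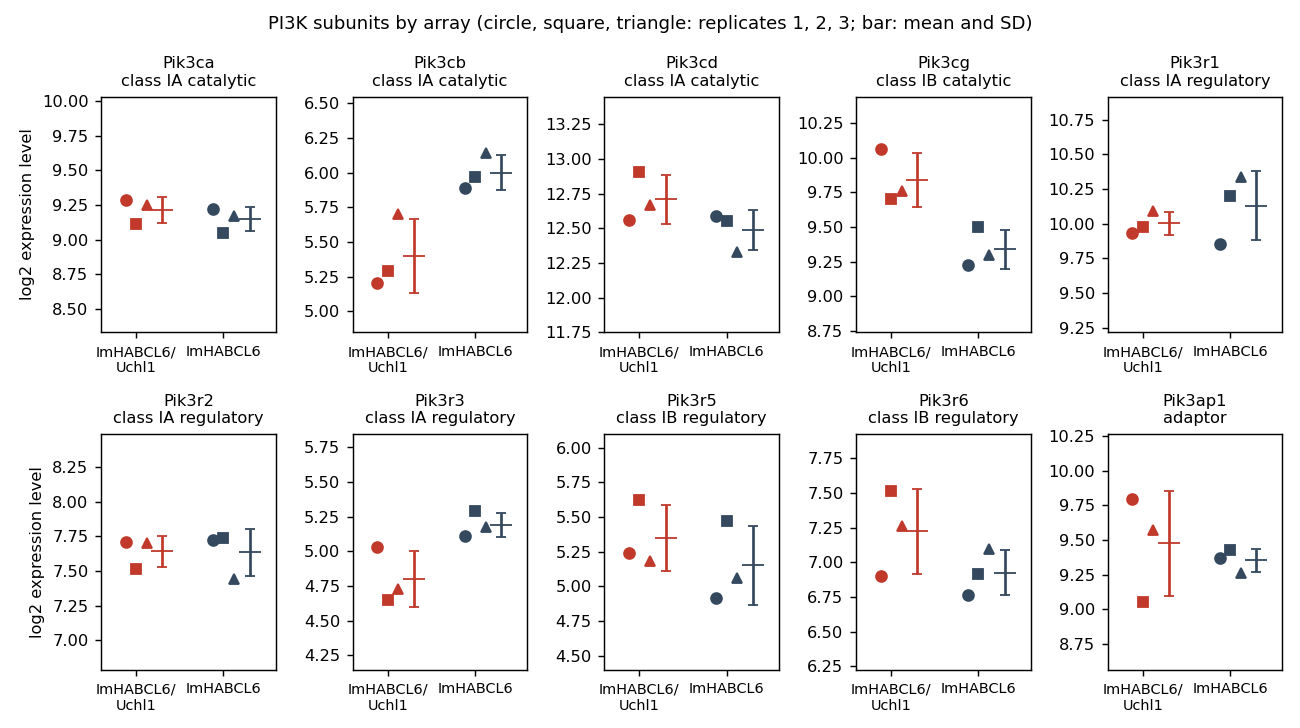
Log2 expression level (vertical axis, each panel spanning the same range around its own mean) of the 10 PI3K genes in the ImHABCL6/Uchl1 arrays (red, left) and the ImHABCL6 arrays (dark blue, right). Circle, square and triangle are replicates 1, 2 and 3, and the bar is the mean with its SD (n = 3). The groups lie apart for Pik3cb, Pik3cg and Pik3r3.

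Pik3cg encodes the gamma catalytic subunit, the class IB enzyme that acts below chemokine and other G-protein-coupled receptors in leukocytes. Its brighter probe set (1422707_at) read 10.06, 9.70 and 9.76 in the ImHABCL6/Uchl1 arrays, against 9.22, 9.50 and 9.30 in the ImHABCL6 arrays. The lowest ImHABCL6/Uchl1 array lay above the highest ImHABCL6 array, and replicate 1 of the transgenic group was the highest. The means were 9.84 ± 0.20 in ImHABCL6/Uchl1 and 9.34 ± 0.14 in ImHABCL6 cells (SD, n = 3 each), a 1.42-fold difference. The log2 difference was 0.50 (SE 0.15, 95% interval 0.15 to 0.85, limma adjusted p = 0.933), and an exact two-sided permutation test gave p = 0.1, which is the lower bound of that test with this number of arrays. Its second probe set (1422708_at) read 9.91, 9.58 and 9.64 in the ImHABCL6/Uchl1 arrays, against 9.01, 9.21 and 9.09 in the ImHABCL6 arrays. It again separated the groups, with a difference of 0.61 (SE 0.14, limma adjusted p = 0.977 over all probe sets). The annotation gives both probe sets the same sequence accession, so they are not independent measurements.

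The Pik3cg difference was between 0.39 and 0.58 when any 1 array was left out, and smallest without ImHABCL6/Uchl1 replicate 1, the array of lowest erythroid signal. With the erythroid mean as a covariate it was 0.37, with an unadjusted limma p of 0.060, against 0.011 without the covariate. The limma adjusted p was then 0.341, lower than in the main fit. In the covariate fit 15.1% of all genes had an unadjusted p under 0.05, against 4.94% in the main fit.

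Pik3r5 and Pik3r6 encode the regulatory partners of the gamma subunit, known as p101 and p84, which tether it to G-protein beta-gamma subunits. Pik3r6 (1443816_s_at) read 6.90, 7.51 and 7.26 in the ImHABCL6/Uchl1 arrays, against 6.77, 6.92 and 7.09 in the ImHABCL6 arrays. ImHABCL6/Uchl1 replicate 1 fell inside the ImHABCL6 range, and the other transgenic arrays lay above it. The difference was 0.30 (SE 0.18, limma adjusted p = 0.998). A second, dimmer probe set of Pik3r6 (1437956_at) read 4.15, 4.14 and 4.07 in the ImHABCL6/Uchl1 arrays, against 3.87, 3.87 and 3.85 in the ImHABCL6 arrays. It separated the groups, with a difference of means of 0.26 (SE 0.12, limma adjusted p = 0.999 over all probe sets). Its level was low, above 22.4% of probe sets, where log2 differences are compressed. Pik3r5 (1434980_at) was dim as well, at 5.24, 5.62 and 5.18 in the ImHABCL6/Uchl1 arrays, against 4.92, 5.47 and 5.06 in the ImHABCL6 arrays. Its groups overlapped, with replicate 2 the highest of each, and the difference was 0.20 (SE 0.19, limma adjusted p = 0.998). It was 0.06 without ImHABCL6/Uchl1 replicate 2, 0.08 without ImHABCL6 replicate 1 and 0.36 without ImHABCL6 replicate 2, and -0.0081 with array weights. The size for Pik3r6 depended on the arrays: it was 0.15 without ImHABCL6/Uchl1 replicate 2, 0.46 without its replicate 1, and 0.60 with the erythroid covariate (limma adjusted p = 0.307).

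All 3 class IB genes thus had positive differences, of which that of Pik3cg separated the groups. Positive differences were found for 50.6% of all genes.

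The class IA catalytic subunits did not share a direction. Pik3cb encodes the beta subunit, which is widely expressed and can respond to G-protein beta-gamma subunits as well as to phosphotyrosine. It was read by 1 probe set (1453069_at), at 5.20, 5.29 and 5.70 in the ImHABCL6/Uchl1 arrays, against 5.89, 5.97 and 6.14 in the ImHABCL6 arrays. The groups lay apart by 0.19 between the nearest arrays, ImHABCL6/Uchl1 replicate 3 and ImHABCL6 replicate 1. The means were 5.40 ± 0.27 in ImHABCL6/Uchl1 and 6.00 ± 0.13 in ImHABCL6 cells (SD, n = 3 each), a difference of -0.60 (SE 0.17, 95% interval -0.99 to -0.22), or 1.52-fold. This was the smallest p of the 10 genes (limma adjusted p = 0.870, exact permutation p = 0.1). The probe set lay below the median gene, and a filter on dim genes removes it. The difference was between -0.75 and -0.50 when any 1 array was left out, -0.48 with the erythroid covariate and -0.39 with array weights.

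Pik3cd encodes the delta subunit, the leukocyte isoform below the antigen receptor. Its main probe set (1443798_at) read 12.56, 12.90 and 12.67 in the ImHABCL6/Uchl1 arrays, against 12.59, 12.55 and 12.33 in the ImHABCL6 arrays. The highest values were transgenic, but replicate 1 of that group fell among the ImHABCL6 arrays. The difference was 0.22 (SE 0.15, 95% interval -0.12 to 0.56, limma adjusted p = 0.998; exact permutation p = 0.2). It was 0.13 without ImHABCL6/Uchl1 replicate 2, 0.14 without ImHABCL6 replicate 3 and 0.30 without ImHABCL6/Uchl1 replicate 1. Of the 6 probe sets of Pik3cd 3 had positive and 3 negative differences, from -0.14 to 0.29, and none separated the groups. Their mean signals ran from 3.10 to 12.60, although they are assigned to 1 gene, so the signal of a probe set is no measure of one transcript against another. The mean of all 6 probe sets gave a difference of 0.07. The second brightest (1453281_at) read 10.56, 9.85 and 10.19 in the ImHABCL6/Uchl1 arrays, against 10.39, 10.11 and 10.20 in the ImHABCL6 arrays. Its replicate 2 was the lowest of the transgenic arrays, where the main probe set had its highest.

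Pik3ca encodes the alpha subunit, the widely expressed isoform below growth factor receptors. It read 9.29, 9.11 and 9.25 in the ImHABCL6/Uchl1 arrays, against 9.22, 9.05 and 9.17 in the ImHABCL6 arrays (1460326_at). The groups overlapped, and the difference was 0.07 (SE 0.13, 95% interval -0.23 to 0.36, limma adjusted p = 0.998). Of its 6 probe sets 4 had positive and 2 negative differences. The dimmest of them (1440054_at, mean 4.56) separated the groups, with a difference of means of 0.31, and the others overlapped. Its nearest arrays were close, at 4.557 in ImHABCL6/Uchl1 replicate 2 and 4.505 in ImHABCL6 replicate 3.

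**Figure D2:**
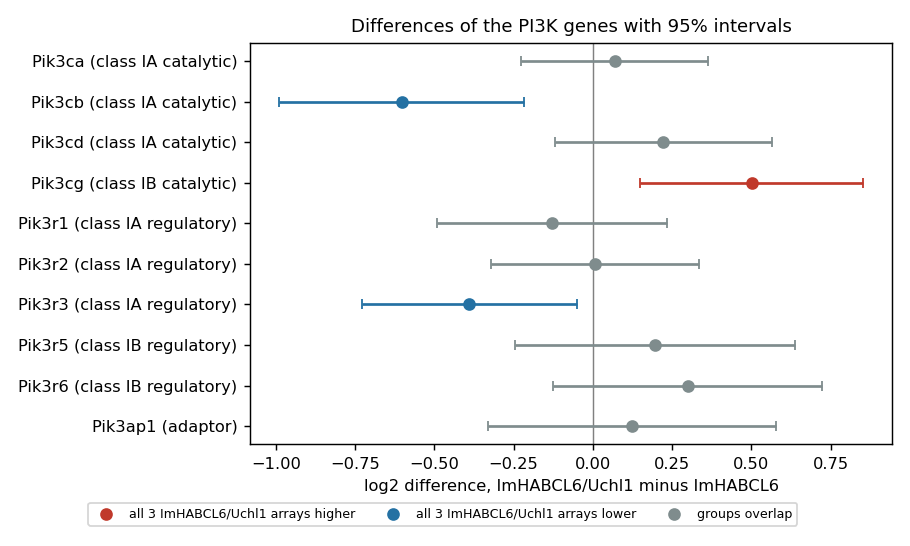
Log2 difference, ImHABCL6/Uchl1 minus ImHABCL6 (horizontal axis), of the 10 PI3K genes with the 95% interval of the limma fit, not adjusted for the number of genes. Red and blue mark genes whose groups do not overlap, Pik3cg at 0.50, Pik3cb at -0.60 and Pik3r3 at -0.39, and grey the 7 that overlap.

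Among the class IA regulatory subunits, which stabilise the catalytic subunit and hold it inactive until its SH2 domains bind phosphotyrosine, the differences were near 0 or negative. Pik3r1 encodes p85-alpha and, from internal starts, shorter forms. Its main probe set (1438682_at) read 9.94, 9.98 and 10.09 in the ImHABCL6/Uchl1 arrays, against 9.86, 10.20 and 10.34 in the ImHABCL6 arrays. The spread was wider among ImHABCL6 arrays, whose replicate 1 was the lowest of all 6, and the difference was -0.13 (SE 0.16, limma adjusted p = 0.998). Its size rested on single arrays: it was -0.27 without ImHABCL6 replicate 1, -0.03 without ImHABCL6 replicate 3, and -0.0058 with the erythroid covariate. All 4 probe sets of Pik3r1 had negative differences, from -0.49 to -0.13, and their mean gave -0.35. Of these, 1425515_at separated the groups, at 7.05, 6.16 and 7.16 in the ImHABCL6/Uchl1 arrays, against 7.23, 7.35 and 7.27 in the ImHABCL6 arrays (difference -0.49, SE 0.25, limma adjusted p = 0.999 over all probe sets). Replicate 2 of the transgenic group was far below the other 5 arrays there. Probe set 1425514_at, with a difference of -0.47, read 8.01, 8.21 and 7.91 in the ImHABCL6/Uchl1 arrays, against 7.79, 8.69 and 9.05 in the ImHABCL6 arrays. ImHABCL6 replicate 1 was its lowest array, so the groups overlapped.

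Pik3r2, which encodes p85-beta, showed the smallest difference of the family. It read 7.71, 7.51 and 7.70 in the ImHABCL6/Uchl1 arrays, against 7.72, 7.74 and 7.44 in the ImHABCL6 arrays (1418463_at). The difference was 0.0075 (SE 0.14, 95% interval -0.32 to 0.34, limma adjusted p = 0.998), and its sign changed with the setting. A further probe set assigned to both Pik3r2 and Ifi30 was not used.

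Pik3r3 encodes p55-gamma, a shorter regulatory subunit. Its 1 probe set (1456482_at) read 5.03, 4.65 and 4.73 in the ImHABCL6/Uchl1 arrays, against 5.11, 5.29 and 5.17 in the ImHABCL6 arrays. The groups lay apart narrowly, by 0.08 between their replicates 1. The means were 4.80 ± 0.20 in ImHABCL6/Uchl1 and 5.19 ± 0.09 in ImHABCL6 cells (SD, n = 3 each), with a difference of -0.39 (SE 0.15, limma adjusted p = 0.983, exact permutation p = 0.1). This was the dimmest of the 10 main probe sets, above 30.7% of genes, and a filter on dim genes removes it. The difference was -0.53 with the erythroid covariate and between -0.50 and -0.31 when any 1 array was left out.

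Pik3ap1 encodes BCAP, an adaptor whose phosphorylated tyrosines recruit class IA PI3K to the B-cell receptor and Toll-like receptors. It read 9.80, 9.06 and 9.58 in the ImHABCL6/Uchl1 arrays, against 9.37, 9.43 and 9.26 in the ImHABCL6 arrays (1429831_at). The transgenic arrays held both the highest and the lowest value, with an SD of 0.38 against 0.08 in ImHABCL6 cells. The difference was 0.12 (SE 0.20, limma adjusted p = 0.998). Leaving out ImHABCL6/Uchl1 replicate 1 gave -0.04, leaving out its replicate 2 gave 0.33, and the erythroid covariate gave -0.16. Its second probe set (1421285_at) had a difference of -0.13 and overlapped too.

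**Figure D3:**
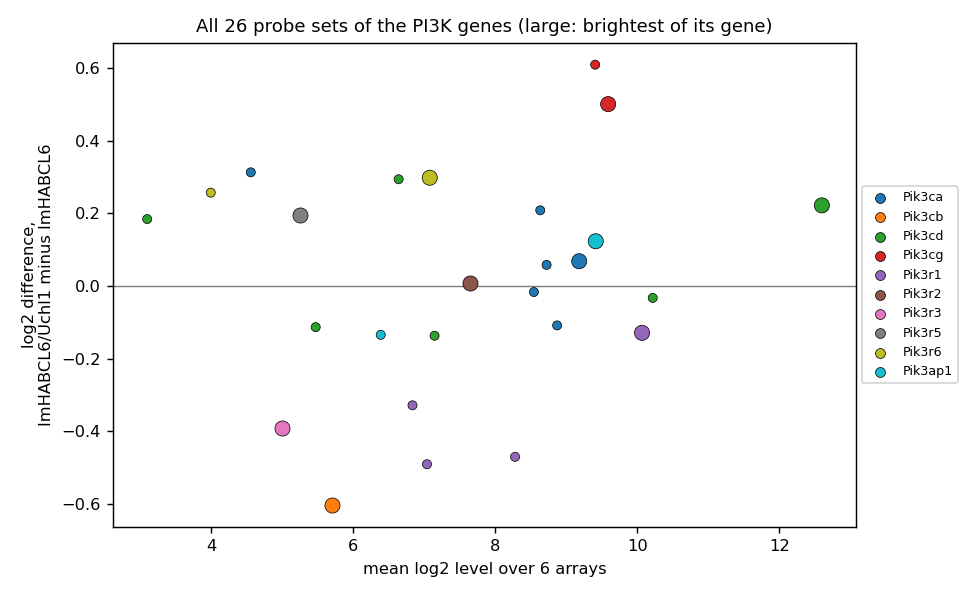
Mean log2 level over the 6 arrays (horizontal axis) and log2 difference, ImHABCL6/Uchl1 minus ImHABCL6 (vertical axis), of the 26 probe sets, coloured by gene, with the brightest of each gene drawn large. Both Pik3cg probe sets lie at the top (0.50 and 0.61), all 4 of Pik3r1 lie below 0, and those of Pik3cd and Pik3ca lie on both sides.

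Across all 26 probe sets, 14 had positive and 12 negative differences. Direction was shared by every probe set in 3 of the 6 genes with more than 1, namely Pik3cg, Pik3r6 and Pik3r1, and was mixed for Pik3ca, Pik3cd and Pik3ap1. No probe set passed with limma over 45037 probe sets, where 0 did. The unadjusted limma p was under 0.05 for the Pik3cg, Pik3cb and Pik3r3 probe sets and for 1440054_at of Pik3ca. Over all probe sets 4.86% had such a p. The same probe sets separated the groups, as did 1425515_at of Pik3r1 and 1437956_at of Pik3r6, against 9.36% of all probe sets. The other member probe sets overlapped.

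The genes around PI3K gave no calls either. Of 29 measured receptors and adaptors upstream, 20 had positive and 9 negative differences (median 0.05), and 2 had an unadjusted limma p under 0.05, against 4.94% of all genes. These were Cblb, a ubiquitin ligase that restrains antigen receptor signalling (0.34, SE 0.15), and Gab1, a docking adaptor that binds p85 (-0.71, SE 0.27). Cblb read 9.74, 9.69 and 9.37 in the ImHABCL6/Uchl1 arrays, against 9.35, 9.27 and 9.17 in the ImHABCL6 arrays. Gab1 read 5.92, 6.83 and 6.80 in the ImHABCL6/Uchl1 arrays, against 6.97, 7.13 and 7.57 in the ImHABCL6 arrays. Both separated the groups, with limma adjusted p of 0.998 and 0.983, and 3 of the 29 did so in all, against 9.44% of all genes. Within each group the arrays of Gab1 stood in the same order as the erythroid mean. The complement receptor Cr2 came next by p (0.62, SE 0.28) and overlapped.

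Lipid phosphatases remove phosphates from PIP3 and related lipids. Of 10 measured genes of a list of these, which also held the inositol phosphate phosphatase Inpp5a, 4 had positive and 6 negative differences (median -0.10). Of the 10, 2 had an unadjusted limma p under 0.05, against 4.94% of all genes. Synj1, a phosphatase of endocytic vesicles, read 8.43, 9.32 and 9.11 in the ImHABCL6/Uchl1 arrays, against 9.36, 9.60 and 9.89 in the ImHABCL6 arrays (-0.67, SE 0.25, limma adjusted p = 0.983). Its arrays stood in the same order as the erythroid mean within each group. Inpp5e, a phosphatase of the primary cilium, read 7.20, 6.69 and 6.68 in the ImHABCL6/Uchl1 arrays, against 7.30, 7.31 and 7.33 in the ImHABCL6 arrays (-0.46, SE 0.17, limma adjusted p = 0.983). Both were lower in every transgenic array, as were 5.49% of all genes. Inpp5d, which encodes SHIP, the phosphatase that opposes PI3K below inhibitory Fc receptors, overlapped (0.17, SE 0.13).

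Of 33 measured genes listed as effectors below PI3K or as part of AKT and mTOR signalling, 18 had positive and 15 negative differences (median 0.0074). Of the 33, 1 had an unadjusted limma p under 0.05, against 4.94% of all genes. It was Sgk3, a kinase related to AKT, at -0.38 (SE 0.16), whose groups overlapped. The mTORC1 activator Rheb followed at -0.31 (SE 0.16), lower in every transgenic array, and then Foxo3 at -0.87 (SE 0.51), which overlapped. Of the 33 genes, 3 separated the groups, against 9.44% of all genes. Besides Rheb these were Plekha2 (0.19) and Bad (0.18), both higher in every transgenic array. Foxo3 read 8.71, 10.75 and 9.98 in the ImHABCL6/Uchl1 arrays, against 10.01, 10.77 and 11.28 in the ImHABCL6 arrays, in the same order of arrays as the erythroid mean within each group.

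PI3K output through AKT excludes FOXO factors from the nucleus. Of 18 measured transcripts known to be driven by FOXO factors, 12 had positive and 6 negative differences (median 0.12), where 50.6% of all genes were positive. The mean level of the 18 leaned the other way, at 7.72 in ImHABCL6/Uchl1 and 7.76 in ImHABCL6 cells. Among the positive genes Rag1, Rag2, Il7r, Fbxo32, Ccr7 and Pik3ip1 lay below the median gene, and the 6 negative genes lay above it. Sesn1, an inhibitor of mTORC1, was the 1 of 18 with an unadjusted limma p under 0.05, against 4.94% of all genes. It read 9.68, 10.17 and 9.67 in the ImHABCL6/Uchl1 arrays, against 10.43, 10.39 and 10.69 in the ImHABCL6 arrays (-0.66, SE 0.18, adjusted p = 0.854). The cell-cycle inhibitor Cdkn1b (-1.02, SE 0.52) and Bcl6 (0.24, SE 0.15) overlapped between groups, and Bcl6 is deregulated by the allele that both carry. Cdkn1b had the same order of arrays as the erythroid mean within each group. The 4 measured genes of class II and III PI3K had 0 with an unadjusted p under 0.05 and differences from -0.16 (Pik3c3, the vesicle-sorting enzyme) to 0.05 (Pik3r4, its regulatory partner).

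**Figure D4:**
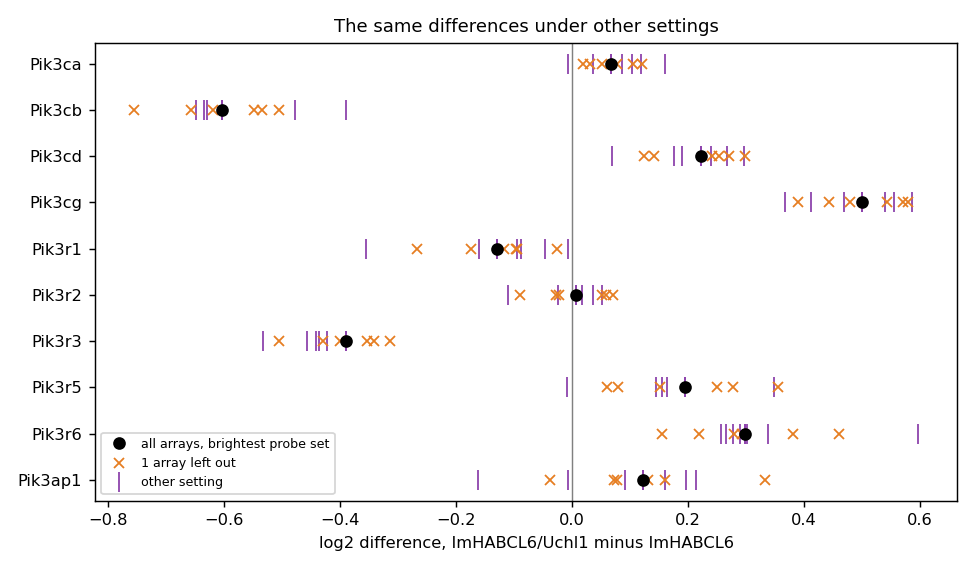
Log2 difference, ImHABCL6/Uchl1 minus ImHABCL6 (horizontal axis), of each PI3K gene with all arrays and its brightest probe set (black), with 1 array left out (orange crosses) and under other settings (purple bars). Pik3cg stays between 0.37 and 0.59, Pik3cb between -0.75 and -0.39 and Pik3r3 between -0.53 and -0.31, and Pik3ca, Pik3r2, Pik3r5 and Pik3ap1 reach both sides of 0.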

How the data were processed

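The values the authors deposited are log2 levels for each probe set of Affymetrix mouse 430 2.0 arrays. RMA and Partek were named without versions, per the submitters' processing notes. RMA summarises probes on the log2 scale and compresses differences of dim probe sets. No detection calls were used, and precision is limited by having 3 arrays in each group.

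Gene symbols came from GEO's annotation of the platform. Of 45101 probe sets, 34945 had exactly 1 symbol and 932 had several. Updating through RefSeq's GRCm38.p6 gene table (18031 of 18193 genes matched) changed 0 symbols. Each gene was read by its probe set of highest mean. The test of ImHABCL6/Uchl1 against ImHABCL6 was two-sided and used lmFit and eBayes of limma 3.58.1 (R 4.3.3). P-values were adjusted by Benjamini-Hochberg across the whole gene table, and genes under 0.05 were called. The 95% intervals are per gene. The design text counts 3 mice per genotype, and the labels do not say that replicate numbers pair mice.

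The members, gene lists and tests were chosen with earlier results of these data known. The named genes are the members, Inpp5d and the 3 genes of smallest p in each pathway list. Further genes are named where their level or direction limits the reading of a list. For Pik3cd and Pik3ap1 the 5 genes of highest Pearson correlation were also named. Some genes of the lists were not analysed here. The steps were tested on simulated data, with the same independent noise for every gene and differences larger than those of the members. That test does not show how differences of the members' size are recovered. Alternatives were other probe set choices, normalizations, limma options, an erythroid covariate, a replicate block and leaving out each array. Figures were drawn with matplotlib 3.10.9.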

Additional observations from a re-analysis of the deposited data

How the results depend on the processing

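No gene had a limma adjusted p under 0.05 in any of the 16 alternatives of the fit. In the main fit 0 had one under 0.10. The lowest limma adjusted p of all genes was under 0.10 with array weights (0.069) and without ImHABCL6 replicate 3 (0.094). At an unadjusted p under 0.05 there were 898 genes and 3 members in the main fit. The 898 became 568 without dim genes, 2819 with array weights, 2739 with the erythroid covariate and 387 to 1330 with 1 array left out, and the 3 became 1 without dim genes and 2 to 4 with 1 array left out. The median member difference of 0.10 was 0.039 with the mean of all probe sets, 0.16 after quantile normalization, -0.0060 with the erythroid covariate, and 0.0025 to 0.11 with 1 array left out, lowest without ImHABCL6/Uchl1 replicate 1. Pik3cb, Pik3cd, Pik3cg, Pik3r1, Pik3r3 and Pik3r6 kept their direction in every alternative that gave a value; dim-gene filtering removed Pik3cb, Pik3r3 and Pik3r5. Pik3ap1 was -0.0055 with the mean of all probe sets, -0.16 with the erythroid covariate and -0.037 to 0.33 with 1 array left out. Pik3r2 was -0.024 after median centring, -0.11 with the covariate and -0.089 to 0.071 with 1 array left out. Pik3ca was -0.0062 with the covariate and Pik3r5 -0.0081 with array weights. The cause of these changes was not tested. With 1 array left out, list medians ran from -0.13 to 0.050 for lipid phosphatases, -0.22 to 0.055 for the other PI3K classes and -0.088 to 0.15 for receptors and adaptors; for the effectors the median was 0.089 after quantile normalization. Deviations of same-numbered arrays from their group means correlated at 0.43, 0.19 and -0.26 across genes. Of the 3 ImHABCL6/Uchl1 arrays, 1 correlated best with its own number. With 3 arrays in each group these deviations cancel within the group, so they cannot decide whether replicate numbers pair mice. With the replicate block the Pik3cg difference was 0.50 (limma adjusted p = 0.689), that of Pik3cb -0.60 (adjusted p = 0.364), and 0 genes passed. Array weights ran from 0.297 (ImHABCL6/Uchl1 replicate 2) to 3.30 (its replicate 3). Dim signal limits Pik3cb, Pik3r3 and Pik3r5 most.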

Other observations

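The genes whose levels followed the main probe set of Pik3cd (1443798_at) most closely were Kptn (Pearson r = 0.969), Pou2f3 (0.965), Adcy3 (0.961), Prelid3a (0.960) and Crtc1 (0.952). The search covered the 6 arrays and the 9097 genes at or above the median level. Its second brightest probe set (1453281_at) ordered the transgenic arrays in reverse, so these genes belong to 1 probe set. For the main probe set of Pik3ap1 (1429831_at) the closest genes were Rab30 (0.995), Napsa (0.994), Atmin (0.993), Neurl1b (0.993) and Zfp251 (0.992). Each set holds the highest correlations of a search over all these genes with 6 arrays, and the values are given as a description only.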
